A study of Mus musculus with 30 samples.

Results

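Long non-coding genes that the annotation classes as antisense, because they lie on the strand opposite another gene, were described in the testis of adult mice. They were the rows of the adult read count table with the gene type antisense and a mean of at least 1 CPM (the count of a gene divided by the total count of its library, times 1000000) over the 6 adult libraries. This rule took 701 of 2991 antisense rows (23.4%), in a table of 55566 features. The genes were chosen by their measured level in these libraries, so that level is a description and is not tested.

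The study measured RNA in mouse testis of Ythdc2 mutants. YTHDC2 is a helicase that binds RNA and carries a YTH domain, and germ cells need it at entry into meiosis. Adult testis gave 6 libraries from mice labelled C57BL/6J. There were 3 animals homozygous for the Ythdc2 WLA allele (WLA hom) and 3 heterozygous animals with 1 WLA and 1 wild-type copy (WLA het), so every adult animal carried the allele and no adult wild type was analysed here. The labels do not say what the WLA allele changes. Each genotype had 2 animals of 24 weeks and 1 of 20 weeks, but the columns of the count table do not say which animal is which, so age could not enter a test. The other 24 libraries, from juvenile knockout animals and their controls, came as the authors' tables of effects with no counts. In adult testis Ythdc2 itself had 35.9, 32.6 and 33.95 CPM in WLA hom libraries, against 33.7, 36.2 and 29.7 CPM in WLA het libraries, and the groups overlapped.

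Antisense genes are transcribed from the strand opposite another gene. Some start close to a coding gene and run away from it, so that both share a stretch of promoter, while others lie inside a coding gene or meet its far end. Testis is known for transcribing many such genes, above all in spermatocytes and round spermatids, and for most of them no function is known. Several classes of regulator act at promoters in these cells: MYBL1 of the MYB family in pachytene spermatocytes, and CREM, which binds cyclic AMP response elements (CRE), and RFX2 in spermatids.

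RefSeq gave a gene for 483 of the 701 antisense genes and a strand and promoter for 371, on GRCm38.p6, the assembly also called mm10. The 2 windows printed first are the promoters of the called genes with a RefSeq promoter, from 250 bases before to 50 bases after the start. Capitals mark matches to any of 7 motifs searched on both strands: CAGTTG for the MYB family, TAACGG for the same family, TGACGTCA for the full CRE, TGACG for the short CRE that lies within the full one, GTTGCC for RFX factors, GCATGCGC for NRF1, and TATAAA for the TATA box. Both read 5′ to 3′ on the strand of the antisense gene, chr17:66714206-66714505 on the plus strand and chr2:74716081-74716380 on the minus strand.
1700016K05Rik: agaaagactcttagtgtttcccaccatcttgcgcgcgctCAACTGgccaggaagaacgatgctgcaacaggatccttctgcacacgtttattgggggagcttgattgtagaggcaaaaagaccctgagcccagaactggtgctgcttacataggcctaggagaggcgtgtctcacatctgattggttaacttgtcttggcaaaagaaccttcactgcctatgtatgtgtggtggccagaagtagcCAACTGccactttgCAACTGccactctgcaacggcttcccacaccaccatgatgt
Hoxd3os1: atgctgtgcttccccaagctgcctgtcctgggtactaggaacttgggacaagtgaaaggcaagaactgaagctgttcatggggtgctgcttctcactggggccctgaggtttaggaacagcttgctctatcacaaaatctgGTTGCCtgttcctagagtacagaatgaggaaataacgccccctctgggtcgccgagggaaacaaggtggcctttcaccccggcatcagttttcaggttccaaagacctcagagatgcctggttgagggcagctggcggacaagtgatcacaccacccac
The window of 1700016K05Rik held 3 matches to CAGTTG, each on the other strand and so printed as CAACTG, and these began 211 and 5 bases before the start and at base 10 after it. That of Hoxd3os1 held a single match, to GTTGCC, 109 bases before the start.

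The next stretches are whole, and show how little lies between an antisense gene and a coding gene that start back to back. Each is printed on the strand of the antisense gene, from the last base before the coding gene's start to the last base before its own start, with the same capitals. They are chr13:55784469-55784499 (minus strand), chr11:80858301-80858362 (minus), chr1:73015900-73016035 (plus) and chr11:59948148-59948213 (minus) of GRCm38.p6.
4930451E10Rik and Catsper3: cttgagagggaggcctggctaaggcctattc
4930507D10Rik and Spaca3: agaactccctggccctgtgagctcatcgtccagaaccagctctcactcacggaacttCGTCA
1700027A15Rik and Tnp1: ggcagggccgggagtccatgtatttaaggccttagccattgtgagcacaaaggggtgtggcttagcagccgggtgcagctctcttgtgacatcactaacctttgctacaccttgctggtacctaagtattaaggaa
Med9os and Med9: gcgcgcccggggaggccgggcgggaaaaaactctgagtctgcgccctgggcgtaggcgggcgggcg
They are 31, 62, 136 and 66 bases long. The stretch between Med9os and Med9 had a GC share of 77.3% and 10 CpG, while that between 4930451E10Rik and Catsper3 had 58.1% and no CpG. The only match among these 4 stretches was CGTCA, which is TGACG on the other strand, beside 4930507D10Rik.

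Over the 371 promoters, TGACG was found in 25.9%, against 20.9% of all 27025 promoters of the RefSeq table. CAGTTG was found in 16.4% and 13.6%, GTTGCC in 16.7% and 12.7%, and TGACGTCA in 2.96% and 1.86%, in the same order. TAACGG was found in 3.23% and 2.68%, GCATGCGC in 2.70% and 2.80%, and TATAAA in 9.70% and 14.2%. In the promoters of 711 lincRNA genes chosen by the same threshold, the shares were 17.4% for TGACG, 17.9% for CAGTTG, 17.7% for GTTGCC, 3.23% for TGACGTCA, 3.38% for TAACGG, 1.83% for GCATGCGC and 16.2% for TATAAA. In 11238 protein-coding promoters of the same threshold, the shares were 29.8% for TGACG, 11.1% for CAGTTG, 13.8% for GTTGCC and 3.11% for TGACGTCA. They were 3.56% for TAACGG, 5.19% for GCATGCGC and 7.26% for TATAAA. In the share with TGACG the antisense promoters were thus above all promoters and lincRNA promoters, but below protein-coding promoters. They were below lincRNA promoters in the shares with CAGTTG, with the RFX motif and with the full CRE. The promoters fell into different kinds by position. In the 101 antisense genes that start within 1000 bases of a coding start on the other strand, the median ratio of observed to expected CpG was 0.88 and 70.3% had a ratio of at least 0.6. In the other 270 these were 0.28 and 17.4%, and all promoters had a median of 0.39. The protein-coding promoters had 0.74 and 66.9%. TGACG was in 41.6% of the 101 and 20.0% of the 270, and TATAAA in 4.95% of the 101 and 11.5% of the 270. In the same order, GTTGCC was in 21.8% and 14.8%, TGACGTCA in 4.95% and 2.22%, and GCATGCGC in 5.94% and 1.48%. TAACGG was in 3.96% and 2.96%, and CAGTTG in 13.9% and 17.4%. The 101 were thus above lincRNA promoters in GTTGCC and TGACGTCA, and the 270 below them. For TGACG the 270 were thus near the 20.9% of all promoters, and the higher share lay in the 101, beside 29.8% of protein-coding promoters. TGACG itself holds a CpG, so its share and the CpG ratio are not separate traits. The windows of the 101 can also take in bases of the coding gene's own promoter. These shares were not tested, and a match is a run of letters in a window, not a bound site.

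Most antisense genes were near the bottom of the range that the rule let in. Their mean level had a median of 3.46 CPM and quartiles of 1.73 and 8.01 CPM, and 9 genes reached 100 CPM. By the same threshold, 1186 lincRNA genes (long intergenic non-coding RNA) had a median of 3.22 CPM and 14070 protein-coding genes one of 19.3 CPM. These are read counts that are not divided by length, so they do not rank genes by number of transcripts. The 10 genes with most reads held 22.8% of all reads of the 701, and the first 40 held 45.7%.

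**Figure D1:**
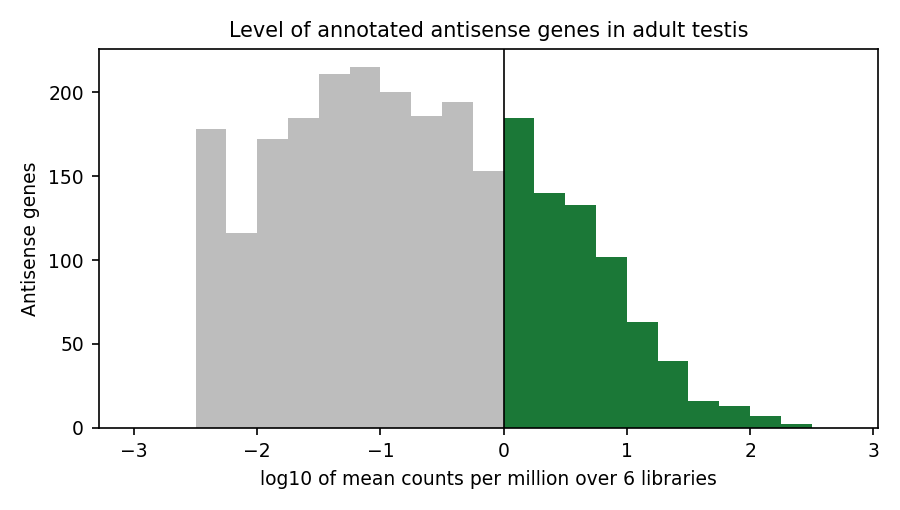
Number of annotated antisense genes (y axis) by the log10 of their mean CPM over the 6 adult libraries (x axis). Green bars right of the line are the 701 genes with a mean of at least 1 CPM, grey bars are genes below it, and 480 antisense rows with no read in any library are left out.

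The number of reads set how precisely each gene could be compared. The median antisense gene had 133 reads per library and the lowest value was 18. For the 214 genes between 1 and 2 CPM, the median coefficient of variation between libraries of a genotype was 15.1% and the median standard error of the log2 fold change was 0.20. For the 9 genes of at least 100 CPM these were 4.45% and 0.05.

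Wbscr25 had the most reads, 296, 309 and 293 CPM in WLA hom libraries, against 324, 271 and 307 CPM in WLA het libraries. Next was 1700027A15Rik, which starts back to back with Tnp1, the gene of a transition protein that replaces histones in elongating spermatids. It had 246, 251.4 and 262 CPM in WLA hom and 260, 273 and 328 CPM in WLA het libraries. Both overlapped between the genotypes. Gm11837 had 154, 148 and 161 CPM in WLA hom and 139, 148 and 138 CPM in WLA het libraries, with every WLA hom value just above every WLA het value, and a log2 fold change (WLA hom over WLA het) of 0.12 ± 0.05 (SE, n = 3 each) that did not pass (adjusted p = 0.326, edgeR's quasi-likelihood test). The next 7 by level, 4930488L21Rik, Gm50240, Gm42609, Gm42918, 4930471G03Rik, 1700006J14Rik and 4930589P08Rik, had log2 fold changes between -0.11 and 0.01, and none passed. 4930488L21Rik lies inside Gnao1, 1700006J14Rik inside Hmga2 and Gm42609 inside Dclk1, each on the other strand.

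Just below the threshold were Gm48529 at 0.979, C330018A13Rik at 0.985 and Gm9917 at 0.996 CPM. Just above it were Gm12364 at 1.0001, Gm13584 at 1.001 and Gm16252 at 1.004 CPM. These 6 are much closer to each other than their libraries are: Gm16252 alone ran over 0.673, 1.02 and 1.33 CPM in WLA hom libraries and 0.839, 1.03 and 1.13 CPM in WLA het libraries.

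Homozygous and heterozygous testes were then compared with edgeR's quasi-likelihood test over all 22446 features with enough reads, which include all 701 antisense genes. With Benjamini-Hochberg adjustment over the whole table and a threshold of 0.05, 4 antisense genes (0.571%) fell in WLA hom testis and none rose. Of all features tested, 0.236% passed in either direction and 0.143% passed as lower. Of the 1186 lincRNA genes of the same threshold on level, 8 passed as lower (0.675%) and 2 as higher. At an unadjusted p under 0.05 there were 155 antisense genes (22.1%), against 13.2% of all features tested. Of these 141 (20.1%) were lower and 14 higher (1.997%), against 7.32% lower and 5.85% higher of all features tested. Among the 1186 lincRNA genes, 271 had an unadjusted p under 0.05. The higher shares than over all features were thus shared with lincRNA genes. DESeq2 gave 670 antisense genes an adjusted p and called 11 (1.64%), all lower, against 1.14% of the 17149 features with an adjusted p in either direction and 0.665% as lower. The 4 genes were 1700016K05Rik, Gm45025, Hoxd3os1 and Gm15402.

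1700016K05Rik had 4.59, 5.85 and 6.47 CPM in WLA hom libraries, against 13.9, 12.8 and 14.4 CPM in WLA het libraries. The counts behind these were 184, 195 and 248 reads in WLA hom and 547, 559 and 519 reads in WLA het libraries. Each WLA hom value was below every WLA het value, with a wide gap between the genotypes. The log2 fold change was -1.29 ± 0.12 (SE, n = 3 each, adjusted p = 0.0015, edgeR's quasi-likelihood test), the lowest among the 701. The gene spans chr17:66714456-66720485 on the plus strand, within the span of Ptprm, which encodes a receptor-type tyrosine phosphatase and lies on the minus strand. Ptprm averaged 11.6 ± 0.51 CPM in WLA hom and 13.1 ± 0.84 CPM in WLA het libraries (SD, n = 3 each), with a log2 fold change of -0.19 that did not pass (adjusted p = 0.363, same test). The strand setting of the counting is not given in the sources used here, and reads from a gene and an overlapping gene on the other strand could then be mixed. Where both hold the same bases, the share of each was not tested.

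Hoxd3os1 had 73.4, 74.7 and 78.2 CPM in WLA hom libraries, against 92.0, 92.6 and 94.7 CPM in WLA het libraries. It had the most reads of the 4, between 2489 and 2998 in WLA hom and between 3424 and 4046 in WLA het libraries. The libraries of each genotype lay close together, and the log2 fold change was -0.31 ± 0.05 (SE, n = 3 each, adjusted p = 0.0224, edgeR's quasi-likelihood test). It spans chr2:74710044-74716130 on the minus strand and overlaps Hoxd3, a homeobox gene of the HoxD cluster, by 4138 bases. Hoxd3 had at most 0.12 CPM in any adult library, too few reads to be tested.

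Gm45025 had 10.1, 9.66 and 11.01 CPM in WLA hom and 14.4, 15.8 and 15.02 CPM in WLA het libraries, with a log2 fold change of -0.56 ± 0.08 (SE, n = 3 each, adjusted p = 0.0203, edgeR's quasi-likelihood test). Gm15402 had 1.07, 0.99 and 1.15 CPM in WLA hom and 2.26, 1.88 and 2.05 CPM in WLA het libraries, with a log2 fold change of -0.95 ± 0.17 (SE, n = 3 each, adjusted p = 0.0462, same test). The genotypes did not overlap in either gene. The counts of Gm15402 were between 33 and 44 reads in WLA hom and between 74 and 89 reads in WLA het libraries. Neither gene had a match in the RefSeq table, so no position is given.

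**Figure D2:**
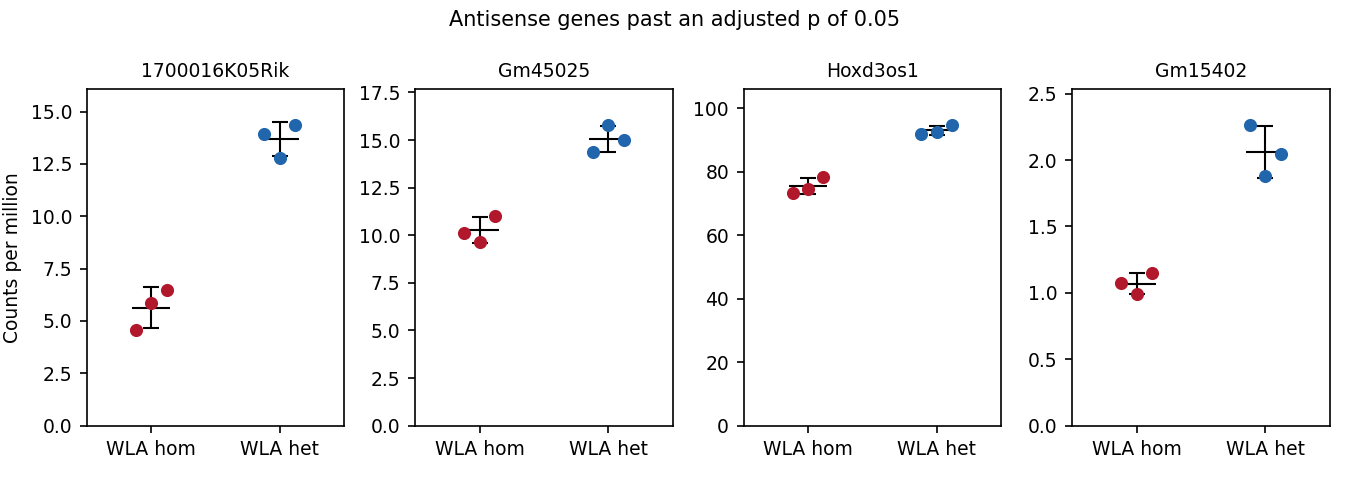
CPM (y axis, from 0) of the 4 antisense genes past an adjusted p of 0.05 in each WLA hom library (red) and WLA het library (blue). Points are libraries, long bars the mean and short bars 1 SD (n = 3 each). In all 4 genes every WLA hom library lies below every WLA het library, as in 8.9% of all features tested. The genes were picked by their p from these same values, so this separation adds no evidence.

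Leaving out each library in turn showed how firmly these calls stand. 1700016K05Rik passed in all 6 of those fits, with adjusted p between 2.3e-05 and 0.0171. The other 3 passed without WLA het library 1 and lost the call without any other library, with adjusted p of 0.0552 to 0.222 for Gm45025, 0.0696 to 0.247 for Hoxd3os1 and 0.111 to 0.326 for Gm15402. Their log2 fold changes stayed negative in every fit.

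Next by p, and not past the threshold, were Gm41668 and 4930579J19Rik. Gm41668 had 2.69, 2.76 and 2.90 CPM in WLA hom and 3.94, 4.51 and 4.89 CPM in WLA het libraries (log2 fold change -0.68, adjusted p = 0.052, edgeR's quasi-likelihood test). 4930579J19Rik had 1.87, 2.01 and 2.35 CPM in WLA hom and 3.23, 3.59 and 3.57 CPM in WLA het libraries (log2 fold change -0.75, adjusted p = 0.054, same test). In both the genotypes were separate. 4930579J19Rik lies inside Bmp6, which encodes a secreted bone morphogenetic protein and had a log2 fold change of 0.01 (adjusted p = 0.986).

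Beyond single calls, the antisense genes as a group lay to the lower side in WLA hom testis. Their median log2 fold change was -0.12, with quartiles of -0.24 and 0.01, and 516 of 701 (73.6%) were below 0. Over all features tested the median was 0.01 and 48.5% were below 0. The lincRNA genes had a median of -0.14 with 76.7% below 0, and protein-coding genes a median of 0.02 with 42.0% below 0. The lower side was thus shared with the other class of long non-coding RNA.

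**Figure D3:**
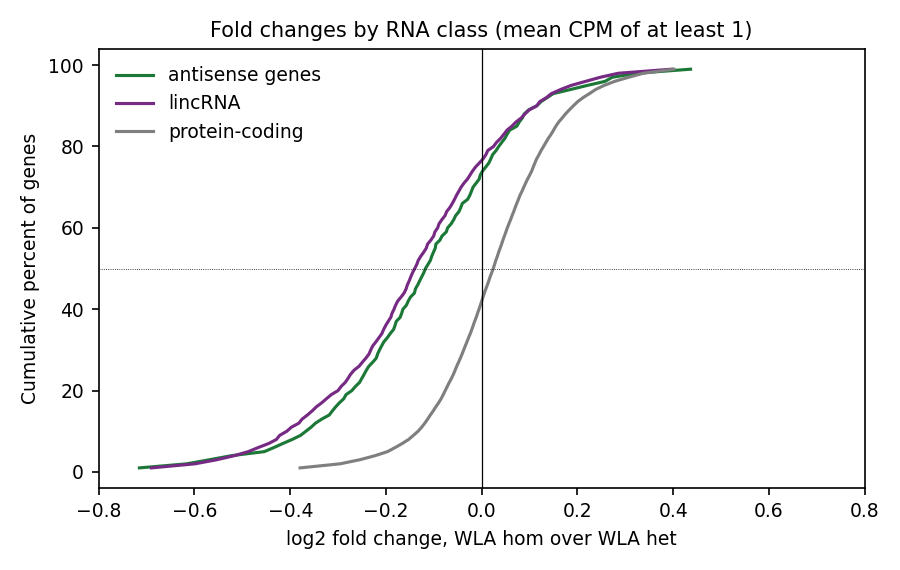
Cumulative percent of genes (y axis) by log2 fold change, WLA hom over WLA het (x axis), for antisense, lincRNA and protein-coding genes with a mean of at least 1 CPM, from the 1st to the 99th percentile. The antisense and lincRNA curves lie left of the protein-coding curve, with medians of -0.12, -0.14 and 0.02.

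All 3 WLA hom libraries lay below all 3 WLA het libraries for 145 of the 701 (20.7%), against 8.9% of all features tested. They lay above for 23 (3.28%), against 10.2% of all features tested. Among lincRNA genes these were 19.6% below and 3.204% above. The highest log2 fold change of the 701 was 0.62, for Gm37571, which had 2.42, 2.79 and 2.09 CPM in WLA hom and 1.5002, 1.62 and 1.58 CPM in WLA het libraries (adjusted p = 0.144, edgeR's quasi-likelihood test). It is named after its value was seen.

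The libraries did not divide by genotype alone. The summed level of the 701 genes was 6359, 6421 and 6569 CPM in WLA hom libraries, against 6462, 6975 and 7223 CPM in WLA het libraries. WLA het library 1 lay within the range of the WLA hom libraries, and WLA het libraries 2 and 3 lay above it. The 95% Wilson intervals of these sums, which cover counting error only, ran from 7195 to 7251 CPM in WLA het library 3 and from 6950 to 6999.7 CPM in WLA het library 2, above those of the other 4 libraries. The intervals of WLA hom library 2 (6394 to 6448 CPM) and WLA het library 1 (6437 to 6487 CPM) overlapped. Counted gene by gene, 194, 238 and 305 of the 701 were above their own mean over the 6 libraries in WLA hom libraries, and 234, 540 and 546 in WLA het libraries. The lincRNA sums were 9599, 9749 and 10042 CPM in WLA hom libraries and 9714, 10915 and 11202 CPM in WLA het libraries, so there too WLA het library 1 lay within the range of the WLA hom libraries and the other two lay above it.

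**Figure D4:**
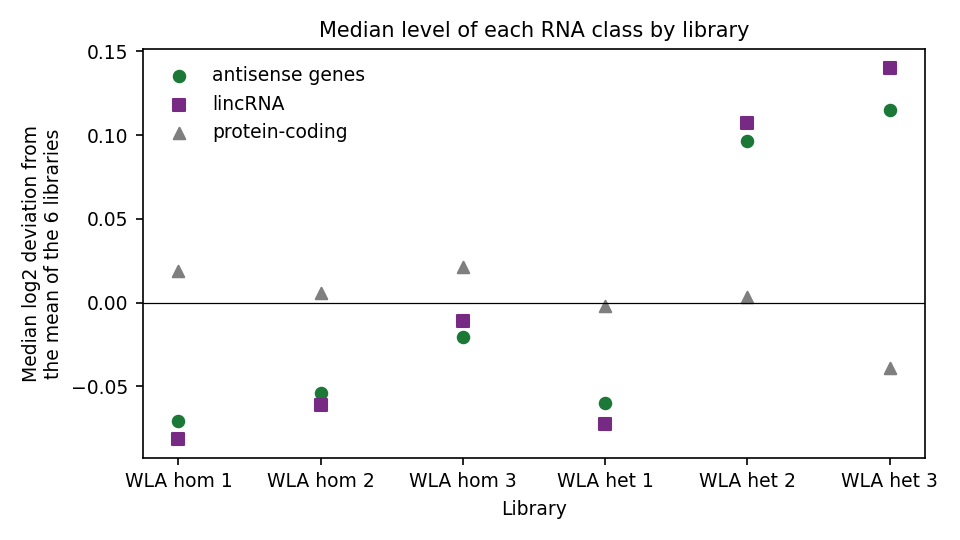
Median over genes of the deviation of log2(CPM + 0.5) from each gene's mean over the 6 libraries (y axis) in each adult library (x axis), for antisense, lincRNA and protein-coding genes. For antisense genes the 3 WLA hom libraries and WLA het library 1 lie between -0.07 and -0.02, and WLA het libraries 2 and 3 at 0.10 and 0.11.

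Without WLA het library 1, 105 of the 701 antisense genes passed, 100 of them lower (14.3%). In that fit 8.37% of the 22910 features tested passed and 3.78% passed as lower. Leaving out any other library left 1 antisense gene called, 1700016K05Rik. The median log2 fold change of the antisense genes ran from -0.17 without WLA het library 1 to -0.08 without WLA het library 3.

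Summed markers of testis cell types also differed between the libraries, and these sums were not tested. The 6 round spermatid markers summed to between 1125 and 1146 CPM in WLA hom libraries, against 1137, 1247 and 1297 CPM in WLA het libraries 1, 2 and 3, and all 6 had a log2 fold change below 0 (median -0.12). The 8 Sertoli cell markers summed to between 1207 and 1237 CPM in WLA hom libraries and to 1241, 1060 and 1110 CPM in WLA het libraries, and all 8 were above 0 (median 0.13). The 6 Leydig cell markers summed to between 511 and 581 CPM in WLA hom libraries and to 525, 501 and 320 CPM in WLA het libraries. The 5 elongating spermatid markers summed to between 10107 and 10516 CPM in WLA hom libraries and to 10296, 8694 and 10161 CPM in WLA het libraries, and the 5 macrophage markers to between 30.1 and 45.0 CPM in WLA hom libraries and to 87.7, 26.0 and 21.2 CPM in WLA het libraries. The peritubular myoid markers summed to 66.1 to 70.7 CPM in WLA hom and 56.8 to 64.5 CPM in WLA het libraries. The fat cell markers summed to 13.1 to 16.5 CPM in WLA hom and 17.2 to 18.4 CPM in WLA het libraries. Both sums were separate between the genotypes, but that of the fat cell markers rested on Car3, which had too few reads to be tested. Car3 had 1.98 CPM in WLA het library 1 and at most 0.30 CPM in any other library. Adipoq, the fat cell marker with most reads, overlapped, with 13.9 CPM in WLA hom library 3 and 12.3 CPM in WLA het library 1. All 4 myoid markers had a log2 fold change above 0 (median 0.13), and 2 of the 3 fat cell markers tested were below 0 (median -0.18). The sums of the spermatogonia, pachytene spermatocyte, endothelial and red blood cell markers overlapped between the genotypes. No gene of the round spermatid, Sertoli, Leydig, elongating spermatid and macrophage lists, 30 in all, passed the edgeR test, 6 had an unadjusted p under 0.05, and DESeq2 called 1, a round spermatid marker. Of the 31 spermatogonia, pachytene spermatocyte, peritubular myoid, endothelial, red blood cell and fat cell markers tested none passed in edgeR, 5 had an unadjusted p under 0.05 and DESeq2 called 0. Over all features tested, 0.236% passed in edgeR and 13.2% had an unadjusted p under 0.05, and DESeq2 called 1.14%. The 5 epididymis markers summed to at most 0.42 CPM in any library, with 1 at 0 throughout. The part of the cell type makeup in the lower side of the antisense genes was not tested. In bulk testis, fewer cells of a type and less RNA per cell cannot be told apart.

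Lists of coding genes with germ cell roles were read beside these values. Of 52 meiosis genes tested none passed in edgeR, 6 had an unadjusted p under 0.05, DESeq2 called 0 and the median log2 fold change was 0.04. Of 52 spermiogenesis genes none passed in edgeR, 11 had an unadjusted p under 0.05, DESeq2 called 2, the median was -0.08 and 44 were below 0. The 25 piRNA pathway genes had a median of 0.03, and the 20 genes of RNA methylation and its readers one of 0.03. None of these 45 passed in edgeR, 6 had an unadjusted p under 0.05 and DESeq2 called 0. The shares over all features were 0.236% in edgeR, 13.2% at an unadjusted p under 0.05 and 1.14% in DESeq2.

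Of the 371 antisense genes with a strand, 248 (66.8%) overlapped a protein-coding gene on the other strand, and 288 had such a gene either overlapping or starting back to back within 1000 bases. In 131 the antisense gene lay inside its coding partner, in 73 the starts overlapped, in 62 the genes started back to back without overlap, in 56 the ends overlapped and in 16 the antisense gene held the partner. A start within 1000 bases of a coding start on the other strand was found for 101 (27.2%), against 66 of 713 lincRNA genes (9.26%). Position on the other strand is part of what the annotation calls antisense, so this is a description.

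Of 333 pairs with both genes tested, no partner passed the edgeR test. Among all 329 partners found, 54 had an unadjusted p under 0.05 and DESeq2 called 1. Over all features these shares were 13.2% and 1.14%, and 0.236% passed the edgeR test. The median log2 fold change was -0.11 for the antisense genes and 0.01 for their partners, and in 72.7% of pairs the antisense gene lay below its partner. Protein-coding genes of the same threshold on level, partners or not, had a median of 0.02. The 72.7% was not set against pairs of antisense genes with other coding genes, so it shows nothing particular to partners. The signs matched in 170 pairs. Spearman's correlation of the log2 fold changes was 0.19 across the 333 pairs, 0.29 across the 101 that start within 1000 bases and 0.15 across the other 232. Both genes of a pair come from the same 6 libraries, pairs can share a gene, and no test was made of these correlations. In the 101 pairs, 78 antisense genes lay below their partner, with medians of -0.10 and 0.02, and this count has the same limit as the 72.7%.

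**Figure D5:**
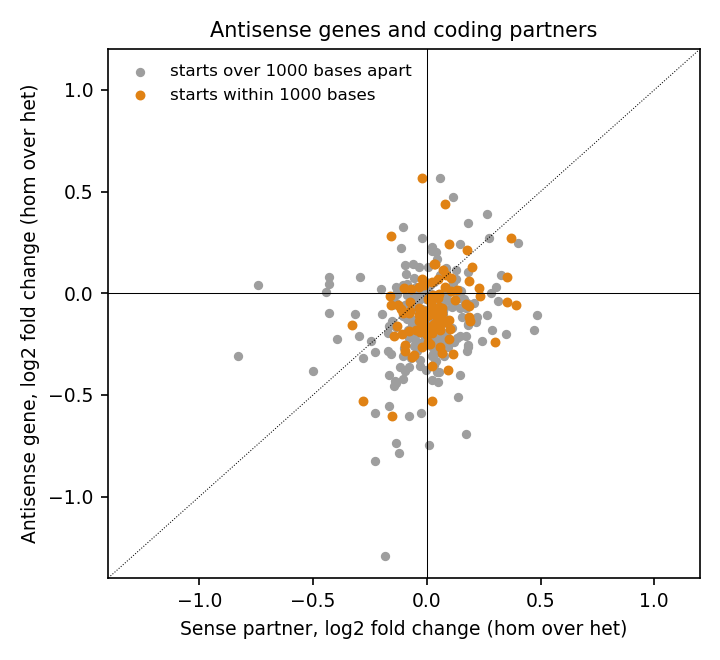
Log2 fold change (WLA hom over WLA het) of each antisense gene (y axis) against that of its coding partner on the other strand (x axis), for 333 pairs. Orange points are the 101 pairs that start within 1000 bases, grey points the other 232, and the dotted line marks equal change. Most points (72.7%) lie below the line, a share that was not set against pairs with other coding genes.

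There were 6 antisense genes with a partner in the meiosis or spermiogenesis list. Beside a spermiogenesis gene lay 1700027A15Rik, 4930507D10Rik and 4930451E10Rik, each starting back to back with it across the short stretches printed above. 1700027A15Rik had a log2 fold change of -0.19 (adjusted p = 0.306), while Tnp1 had 601, 625 and 681 CPM in WLA hom and 607, 632 and 695 CPM in WLA het libraries and a log2 fold change of -0.03. 4930507D10Rik had 11.8, 10.8 and 12.8 CPM in WLA hom and 11.7, 13.7 and 15.2 CPM in WLA het libraries, a log2 fold change of -0.21 (adjusted p = 0.411). Its partner Spaca3, which encodes a lysozyme-like protein of the acrosome, had 99.9, 97.6 and 99.5 CPM in WLA hom and 101, 94.8 and 99.4 CPM in WLA het libraries. 4930451E10Rik had 5.23, 5.04 and 5.22 CPM in WLA hom and 4.45, 5.08 and 5.64 CPM in WLA het libraries, a log2 fold change of 0.02. Its partner Catsper3, which encodes a pore subunit of the sperm calcium channel, had 80.8, 79.3 and 77.0 CPM in WLA hom and 79.0, 86.4 and 87.5 CPM in WLA het libraries. In all 3 antisense genes the genotypes overlapped.

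Beside a meiosis gene lay Rbm46os, 4931419H13Rik and 1700047L14Rik. Rbm46os starts 193 bases from Rbm46, which encodes an RNA-binding protein that acts with YTHDC2 in germ cells. It had 11.1, 10.6 and 11.8 CPM in WLA hom and 10.1, 12.2 and 11.3 CPM in WLA het libraries, a log2 fold change of -0.01, and Rbm46 had one of 0.03. 4931419H13Rik overlaps the start of Ccna1, which encodes a cyclin of meiotic germ cells. It had 3.86, 3.96 and 4.75 CPM in WLA hom and 4.20, 4.90 and 4.48 CPM in WLA het libraries, a log2 fold change of -0.12. 1700047L14Rik lies inside Rnf212, which encodes a crossover factor, and had 0.772, 1.05 and 0.992 CPM in WLA hom and 1.42, 1.74 and 1.77 CPM in WLA het libraries. Its genotypes were separate, with a log2 fold change of -0.82 ± 0.19 (SE, n = 3 each) that did not pass (adjusted p = 0.109, edgeR's quasi-likelihood test). Rnf212 had 4.24, 4.44 and 4.59 CPM in WLA hom and 4.27, 5.40 and 5.78 CPM in WLA het libraries, a log2 fold change of -0.23 (adjusted p = 0.463, same test).

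The name of a host gene is carried by 99 of the antisense genes. Of these 77 were below 0 and the median log2 fold change was -0.10. Over all 701 antisense genes 73.6% were below 0 with a median of -0.12, so the genes named for a host did not stand apart. After Hoxd3os1 the highest by level were Cdk19os, Itpr3os, Med9os, Kcnmb4os1 and Aknaos, with log2 fold changes between -0.14 and 0.08, and none passed. Med9os had 40.9, 39.8 and 45.4 CPM in WLA hom and 42.9, 45.6 and 49.4 CPM in WLA het libraries, a log2 fold change of -0.14. Its partner Med9, which encodes a Mediator subunit, had 59.5, 61.6 and 60.6 CPM in WLA hom and 56.7, 48.9 and 52.5 CPM in WLA het libraries, a log2 fold change of 0.19 (adjusted p = 0.241). The groups overlapped for Med9os and were separate for Med9, but neither passed.

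Few antisense genes lay on the X chromosome, which is silenced in pachytene spermatocytes. They were 2 of the 483 with a position (0.414%), 4930515L19Rik and 1700111N16Rik, against 10 of 870 lincRNA genes (1.15%) and 559 of 13989 protein-coding genes (3.996%) by the same threshold on level. Chromosome 11 held the most, 42. The number of antisense genes of any level on each chromosome was not set against this, and any part of X silencing in the low share was not tested.

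In the authors' deposited table for adult testis, 670 of the 701 had an adjusted p from DESeq2, 11 of these were under 0.05 and all 11 were lower in WLA hom, among 195 features in all. These numbers equal those of the DESeq2 fit above, which used the same counts and the same tool, so they are not a second source. The authors' deposited tables for juvenile testis, of knockout against controls at day 8 and day 10, hold 15145 and 14846 genes, nearly all protein-coding, and none of the 701 was found in them. They do hold 15 partners of the antisense genes named here. In the authors' deposited tables the smallest adjusted p of these 15 was 0.242 in total RNA, for Rnf212 at day 10, and 0.865 in ribosome footprints.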

How the data were processed

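RNA of adult mouse testis was extracted with Trizol, and libraries were made after rRNA removal or poly(A) selection, per the labels' protocols (which library had which is unstated). Per the submitters' processing notes, STAR was the aligner, mm10 the build and DESeq2 the test. Counting program, annotation release and strand setting: not given in the sources used here.

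Raw counts per feature make up the adult table that the authors deposited, and per the file headers it also has the authors' DESeq2 log2 fold changes, p-values and adjusted p-values. For juvenile testis the authors deposited anota2seq effects, read as log2, with adjusted p-values. Totals of the adult libraries were 33331987 to 43707798 counts.

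CPM are counts divided by the column total. All rows passing filterByExpr were tested with the quasi-likelihood method of edgeR 4.0.16 after TMM scaling (WLA hom over WLA het, no covariate) in R 4.3.3 with limma 3.58.1, with Benjamini-Hochberg adjustment over the whole table. The biological coefficient of variation was 6.77%. DESeq2 1.42.0 was an alternative. The procedure was tested on simulated data with the same spread in both genotypes and no deviating library. It therefore does not show how the test behaves with a library such as WLA het library 1. The labels number animals, so libraries were taken as separate animals, and every pair within a genotype differed by more than sampling noise. The chi-square per degree of freedom was 1.79 to 3.98 for pairs of WLA hom libraries and 6.35 to 10.0 for pairs of WLA het libraries. The spread was thus larger among WLA het libraries, and the 2 highest values were those of WLA het library 1.

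Positions, strands and promoters came from RefSeq tables of GRCm38.p6, matched by gene symbol or else by a synonym that only a single gene holds. They hold no exons, so exonic or intronic position is not given. Partners are protein-coding genes on the other strand that overlap by at least 1 base or start within 1000 bases. Calculations outside R used scipy 1.17.1, numpy 2.4.6 and pandas 2.3.3 under Python 3.11.15, and plots used matplotlib 3.10.9.

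The antisense genes and the gene lists were chosen with earlier results of these data known. Genes named are the 10 highest by level, those past 0.05 and the next by p to make 6, the 3 on each side of 1 CPM, those with a partner in a list, the 6 highest named for a host, and their partners. The rule also provided for antisense genes with large juvenile effects, of which there were none. Alternatives were scaling, filter, tool, thresholds, piRNA cluster rows and each library left out. Overlap with piRNA clusters was not analysed, as their rows carry no coordinates.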

Additional observations from a re-analysis of the deposited data

How the results depend on the processing

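The number of antisense genes called was 4, and 4 with DESeq2 size factors, with library totals alone, without piRNA cluster rows, at a mean of at least 0.5 CPM (896 genes) or with TMM-scaled CPM (701 genes), and 3 at a mean of at least 2 CPM (487 genes). It was 36 with no filter on low counts (35 lower), 11 with DESeq2 and 9 at an adjusted p of 0.1, and all 4 genes were among each of these. All features called were 53, and 595 with no filter, 195 with DESeq2, 159 at an adjusted p of 0.1, 53 with DESeq2 size factors, 56 with library totals and 52 without piRNA cluster rows. Leaving out 1 library gave 1 to 105 antisense genes called (105 without WLA het library 1 and 1 without each other), 3 to 1917 features called and a median log2 fold change of the antisense genes of -0.17 to -0.08. That median was between -0.12 and -0.11 under the scaling, filter, tool, piRNA cluster and membership alternatives. The cause of these differences was not tested. Overlap with a coding gene was found for 248 of 371 (66.8%), for 65.5% when at least 100 bases were asked for and for 251 genes when any annotated gene counted. For 29 named antisense genes and 348 values under an alternative, no called change reversed, 15 lost the threshold, 12 gained it and 328 kept their sign. On the given strand alone, TGACG was in 15.1% of the 371 promoters and CAGTTG in 7.82%, against 12.4% and 7.34% of all promoters. In protein-coding promoters of the same threshold on level these were 18.4% and 6.34%. No paired analysis was possible because the labels give the genotypes no shared replicate numbers that the table's columns carry. Genes between 1 and 2 CPM had a median standard error of 0.20 on the log2 scale.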
